A study of Homo sapiens with 9 samples.

Results

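Collagen genes were followed as a family through 28 days of osimertinib in PC9 cells. They are the genes whose symbol is COL, a type number, A and a chain number. This name matched 44 of 20442 genes in the deposited table, and each gene was read through its coding span with the highest mean. Of the 44 genes, 18 had enough reads to be tested. The tested genes were 4 of 11 fibrillar collagens, 5 of 6 basement membrane collagens, 3 of 10 FACIT collagens, 1 of 4 transmembrane collagens, 2 of 5 beaded-filament collagens, the 1 anchoring-fibril collagen, 1 of 2 multiplexins, none of the 3 network collagens of types VIII and X, and 1 of 2 others.

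PC9 is a human lung adenocarcinoma line with an activating mutation of EGFR, the receptor tyrosine kinase that osimertinib inhibits. The FUCCI4 cell cycle reporter was present in all cells (mKO2-CDT1 and Clover-GMNN are the parts named in the labels), and all were fixed with glyoxal, permeabilised with saponin and sorted by DNA content and reporter colour. Cells held in 500 nM osimertinib for 28 days gave 4 libraries, namely G1 of clone 1, G1 of clone 7, S of clone 1 and G2 of clone 1. Untreated cells (day 0) gave 5 libraries, namely G1 and S of clones 1 and 7 and G2 of clone 1. The labels do not say whether libraries of a clone came from separate cultures, so p-values measure the spread between these libraries, which may be technical.

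A collagen chain carries long runs of a glycine-rich repeat and winds with other chains into a rope-like helix. Fibrillar collagens are trimmed outside the cell and pack into the banded fibres of connective tissue, while type IV collagens form the sheet of the basement membrane under an epithelium. FACIT collagens are fibril-associated molecules that sit on the surface of other fibres, type VI forms beaded filaments beside the cell, type VII anchors the basement membrane to the tissue under it, and transmembrane collagens keep 1 end in the cell membrane. In lung carcinomas most fibrillar collagen is known to come from fibroblasts, and the tumour cells themselves contribute a narrower set.

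Recovered depth was 30.5 to 43.1 M (M for mega) reads per day 28 library and 8.83 to 108.7 M per day 0 library, a 12.3-fold range over the series. Reads were counted over the coding span with its introns, so a level mixes spliced and unspliced RNA. Day 28 libraries differed from day 0 libraries in several ways that move with the day. Mitochondrial genes took 8.61% to 21.6% of reads at day 28 and 6.07% to 10.7% at day 0, and spans over 300 kb took 2.06% to 3.41% at day 28 and 0.726% to 1.05% at day 0. Over 402 olfactory receptor genes, which lung cancer cells are not expected to use, the density (reads per kb of span and M of depth) was 0.00806 to 0.0268 at day 28 and 0.00110 to 0.00483 at day 0. Their part in the results was not tested, except where a value below bears on it. Epithelial markers (EPCAM, CDH1 and 4 keratins) summed to 11966 to 23109 reads per M at day 28 and 18552 to 29589 at day 0. Of the 6, 4 fell (limma, median -1.01), against 26.6% of all 12391 genes tested and 35.6% of those with spans up to 30 kb. Fibroblast markers were summed at 0.835 to 3.34 reads per M at day 28 and 0.0736 to 0.453 at day 0. Marker sums were not corrected for the olfactory density, which was itself higher at day 28. No read fell on THY1 at either day, LUM had none at day 0 and 2 in 1 day 28 library, and 0 of the 6 fibroblast markers reached the level needed for a test. Endothelial markers were summed at 2.98 to 8.89 reads per M at day 28 and 6.01 to 11.3 at day 0, with 2 of 3 tested and both lower (CDH5 and PECAM1), and leukocyte markers at 2.36 to 3.13 at day 28 and 4.53 to 12.6 at day 0, with 1 of 3 tested and lower (CD68). The level needed for a test was a mean over all libraries. At day 28 the log2 values were 4.62 to 7.20 for CDH5, 5.70 to 7.22 for PECAM1 and 4.63 to 7.68 for CD68. At day 0 they were 6.69 to 8.84, 8.03 to 9.77 and 9.01 to 10.24. The day 28 mean of each gene was under that level, so each entered the test through day 0. The filter thus favoured markers that were high at day 0, and these calls do not describe the lists. The untested markers did not fall with CDH5, PECAM1 and CD68. VWF had 63 to 240 reads per library at day 28 and 5 to 52 at day 0. PTPRC had 16 to 95 and 0 to 11, and CD3E 0 to 16 and 0 to 2.

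The make-up of the collagen reads changed between the days. At day 28 the largest share belonged to COL16A1, a FACIT chain, with 46.3%, 44.6%, 42.7% and 41.0% of collagen reads in G1 clone 1, G1 clone 7, S and G2. In day 0 libraries COL16A1 held 1.85% to 5.38%. COL7A1, the anchoring-fibril chain, came next at day 28 with 16.8% to 22.9%, against 4.73% to 14.2% at day 0. The type VI chains COL6A1 and COL6A2 together held 9.92%, 18.1%, 6.20% and 5.61% of collagen reads in the same order of day 28 libraries, against 61.0%, 69.3%, 57.3%, 73.1% and 57.5% in day 0 G1 clone 1, G1 clone 7, S clone 1, S clone 7 and G2. No day 28 library overlapped any day 0 library in these shares of COL16A1, COL7A1 or type VI. All 44 genes together took 0.141% to 0.326% of the reads of a day 28 library and 0.0629% to 0.181% of those of a day 0 library, and these ranges overlapped. In bulk libraries a change in the share of cells that make an RNA and a change in RNA per cell cannot be told apart.

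**Figure D1:**
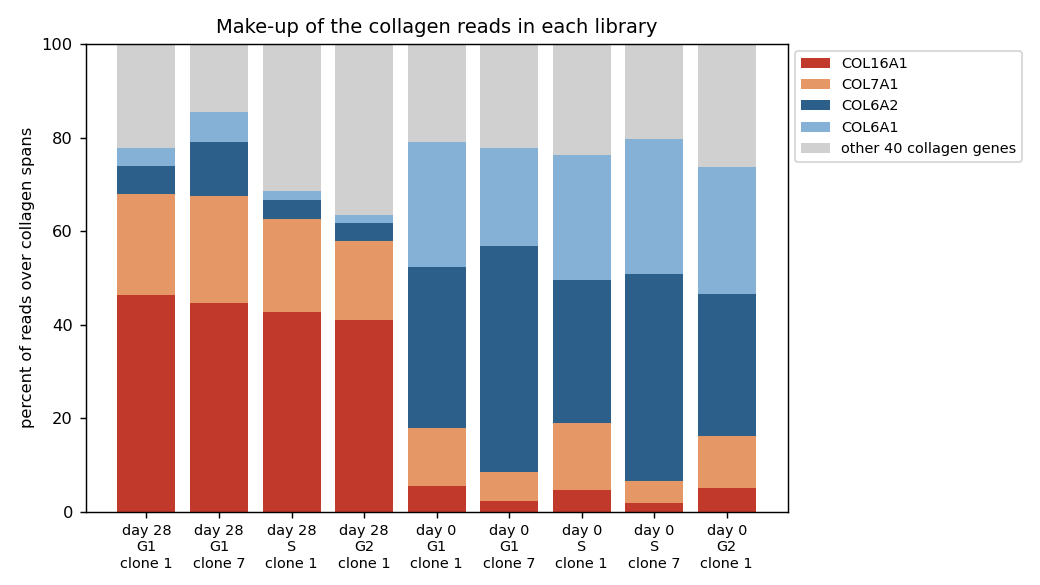
Share of collagen reads (percent of reads over the spans of all 44 collagen genes, y axis) held by COL16A1, COL7A1, COL6A2, COL6A1 and the other 40 genes in each library, with the 4 day 28 libraries left of the 5 day 0 libraries. COL16A1 fills 41.0% to 46.3% of the bar in day 28 libraries and 1.85% to 5.38% in day 0 libraries, where COL6A2 and COL6A1 fill most of it.

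Of the 18 tested genes, 9 rose and 4 fell at day 28 against day 0 with phase as a term (limma, adjusted p under 0.05). Of all 12391 genes tested, 28.6% rose and 26.6% fell, 55.1% in all. The median log2 fold change was 0.82 over the 18 collagens and 0.014 over all genes. The libraries of the days did not overlap in 9 of the 18 collagens, against 39.8% of all tested genes. By class, 3 of 4 fibrillar genes rose (median 1.80), 3 of 5 basement membrane genes rose (median 1.07), 1 of 3 FACIT genes rose and 1 fell (median 0.43), the 1 transmembrane gene fell, and both type VI genes fell (median -2.36). The genes that rose were COL16A1, COL11A2, COL4A3, COL5A1, COL4A4, COL7A1, COL27A1, COL4A5 and COL28A1. Those that fell were COL13A1, COL6A1, COL9A2 and COL6A2. With so few tested genes in a class, these counts describe the genes and not the class as a whole. The filter used the mean over all libraries, so a gene low at 1 day could enter through the other. COL11A2 had a mean log2 level of 6.90 at day 0, and COL13A1 one of 6.96 at day 28, both under the filter at 7.01. Each entered the test through the day at which it was high.

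**Figure D2:**
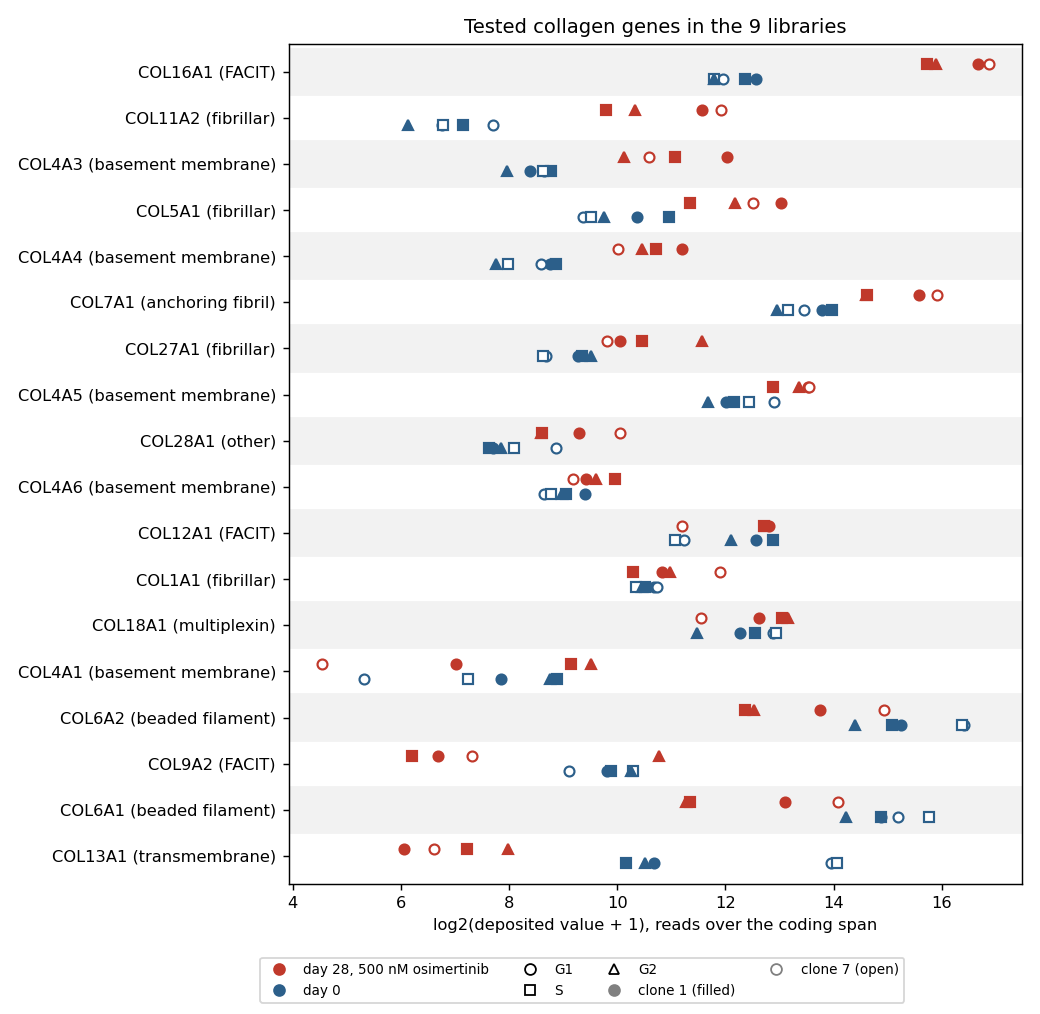
Level of each tested collagen gene (log2 of the deposited value plus 1, x axis) in the 4 day 28 libraries (red, upper row of each gene) and the 5 day 0 libraries (blue, lower row), ordered by fold change. Red lies right of blue without overlap for COL16A1, COL11A2, COL4A3, COL5A1, COL4A4, COL7A1 and COL27A1, and left of blue without overlap for COL6A1 and COL13A1.

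COL16A1 encodes the chain of type XVI collagen, a fibril-associated collagen found near basement membranes and on fibrils. It lies on the minus strand, its coding span at chr1:31652651-31702193 (GRCh38) with 70 coding exons, and 16.9% of the span is exonic. Its log2 level was 16.68, 16.88, 15.73 and 15.90 in day 28 cells (G1 clone 1, G1 clone 7, S and G2), against 12.57, 11.96, 12.37, 11.80 and 11.79 in day 0 cells (G1 clone 1, G1 clone 7, S clone 1, S clone 7 and G2). The lowest day 28 library stood above the highest day 0 library, and within day 28 both G1 libraries were above S and G2. This was a log2 fold change of 4.15 ± 0.23 (SE), 17.8-fold, with a limma adjusted p of 3.04e-06. In reads per kb of span per M reads, COL16A1 averaged 20.2 ± 8.50 at day 28 (SD, n = 4) and 0.882 ± 0.293 at day 0 (SD, n = 5). On that scale it ranked 1 of the 44 collagens at day 28 and 6 at day 0. The span includes introns, and 46.8% of it is exonic in COL1A1 but 4.06% in COL4A5. Such ranks therefore do not order the genes by RNA level. The log2 difference of COL16A1 between days was 4.52 in G1 alone, 3.65 in S and 4.10 in G2.

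The window around its RefSeq start (GRCh38.p14, chr1:31703968-31704267, minus strand, 250 bases before the start and 50 after it) is shown because COL16A1 had the largest rise. Capitals mark the GC box GGGCGG, read on both strands.

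COL16A1: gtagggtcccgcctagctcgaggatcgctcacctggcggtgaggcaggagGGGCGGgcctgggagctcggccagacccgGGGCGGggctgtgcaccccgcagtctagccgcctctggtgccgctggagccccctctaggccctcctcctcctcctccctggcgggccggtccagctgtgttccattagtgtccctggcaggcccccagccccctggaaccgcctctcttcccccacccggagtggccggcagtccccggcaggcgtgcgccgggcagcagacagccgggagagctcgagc

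This window is 73.7% G or C and holds 2 GC boxes. A GC box was found in 18 of the 32 collagen genes that have a promoter sequence in the RefSeq table and in 45.0% of all 35116 promoter windows of 300 bases.

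Among fibrillar collagens, COL11A2 rose most. It encodes a chain of type XI collagen, which sets the diameter of cartilage fibrils together with type II. Its log2 level was 11.56, 11.92, 9.79 and 10.32 at day 28 (G1 clone 1, G1 clone 7, S and G2), against 6.76, 7.69, 7.15, 6.77 and 6.13 at day 0 (G1 clone 1, G1 clone 7, S clone 1, S clone 7 and G2). Every day 28 library was above every day 0 library. The log2 fold change was 3.92 ± 0.40 (SE, limma adjusted p = 4.43e-05), 15.2-fold. Behind the day 0 levels stand 121, 16, 70, 31 and 27 reads, so their counting error is wide, against 1105, 1574, 401 and 620 reads at day 28. Per kb, COL11A2 averaged 0.940 ± 0.619 reads per M at day 28 (SD, n = 4), well under COL16A1, and 0.0423 ± 0.0160 at day 0 (SD, n = 5).

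COL5A1 encodes the main chain of type V collagen, which starts and limits fibril growth inside type I fibrils. Its log2 level was 13.03, 12.52, 11.34 and 12.17 at day 28 (G1 clone 1, G1 clone 7, S and G2), against 10.37, 9.36, 10.95, 9.52 and 9.76 at day 0 (G1 clone 1, G1 clone 7, S clone 1, S clone 7 and G2). The days did not overlap, and S of clone 1 came closest to it (11.34 at day 28 against 10.95 at day 0). COL5A1 rose by 2.24 ± 0.39 on the log2 scale (SE, limma adjusted p = 7.90e-04). COL27A1, a short-helix fibrillar chain known from cartilage, reached 10.04, 9.80, 10.46 and 11.57 at day 28 (same order), against 9.28, 8.69, 9.35, 8.63 and 9.52 at day 0. Its days did not overlap, with a log2 fold change of 1.36 ± 0.30 (SE, limma adjusted p = 0.00294). With the trend of fold change on span removed, COL27A1 gave 0.60 (limma adjusted p = 0.144).

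COL1A1, the major chain of type I collagen, was the fibrillar gene that did not pass the test. Its log2 level was 10.82, 11.91, 10.29 and 10.98 at day 28 (G1 clone 1, G1 clone 7, S and G2), against 10.68, 10.74, 10.51, 10.35 and 10.47 at day 0 (G1 clone 1, G1 clone 7, S clone 1, S clone 7 and G2). The days overlapped and the log2 difference was 0.38 ± 0.27 (SE, limma adjusted p = 0.253). Its partner chain COL1A2 had 0 to 67 reads per library at day 28 and 0 to 12 at day 0, so type I collagen was seen through 1 of its 2 chains. COL3A1, the fibre chain that accompanies type I in soft tissue, had 0 to 33 reads at day 28 and 0 to 2 at day 0.

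Basement membrane chains lie in the genome as head-to-head pairs that share the stretch between their starts. COL4A3 and COL4A4 form such a pair on chromosome 2, with 419 bases between their RefSeq starts, and encode chains of the specialised network of kidney and lung basement membranes. COL4A3 reached 12.02, 10.58, 11.07 and 10.13 at day 28 (G1 clone 1, G1 clone 7, S and G2), against 8.39, 8.64, 8.78, 8.62 and 7.96 at day 0 (G1 clone 1, G1 clone 7, S clone 1, S clone 7 and G2). COL4A4 reached 11.20, 10.02, 10.72 and 10.45 at day 28, against 8.75, 8.60, 8.87, 7.98 and 7.76 at day 0, in the same order. For both genes every day 28 library was above every day 0 library, and G1 of clone 1 was the highest day 28 library. The log2 fold change was 2.52 ± 0.33 for COL4A3 (SE, limma adjusted p = 1.58e-04) and 2.22 ± 0.34 for COL4A4 (SE, limma adjusted p = 3.47e-04). Their partner in that network, COL4A5, is paired on chromosome X with COL4A6, 380 bases between the starts. COL4A5 reached 13.54, 13.54, 12.89 and 13.36 at day 28, against 12.01, 12.91, 12.16, 12.45 and 11.67 at day 0. Day 0 G1 of clone 7 stood just above day 28 S, so the days overlapped, and the log2 fold change was 1.07 ± 0.24 (SE, limma adjusted p = 0.00314). With the span trend removed it was -0.082 (limma adjusted p = 0.763). COL4A6 reached 9.43, 9.18, 9.95 and 9.61 at day 28, against 9.40, 8.64, 9.05, 8.78 and 8.98 at day 0, and did not pass the test (0.60 ± 0.30 SE, limma adjusted p = 0.112).

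The windows of both pairs are shown because both genes of 1 pair passed the test and those of the other did not both pass it. Each runs from 250 bases before to 50 after the RefSeq start (GRCh38.p14), with GGGCGG in capitals on the strand shown and its reverse complement CCGCCC in capitals where it lies on the other strand. They lie at chr2:227164374-227164673 (COL4A3, plus strand), chr2:227164156-227164455 (COL4A4, minus strand), chrX:108439588-108439887 (COL4A5, plus strand) and chrX:108439409-108439708 (COL4A6, minus strand).

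COL4A3: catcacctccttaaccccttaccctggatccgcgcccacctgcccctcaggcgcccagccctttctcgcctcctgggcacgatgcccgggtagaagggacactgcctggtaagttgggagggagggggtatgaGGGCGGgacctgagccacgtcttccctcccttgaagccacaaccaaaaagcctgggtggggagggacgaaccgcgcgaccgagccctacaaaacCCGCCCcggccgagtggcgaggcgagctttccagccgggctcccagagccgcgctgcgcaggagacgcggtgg

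COL4A4: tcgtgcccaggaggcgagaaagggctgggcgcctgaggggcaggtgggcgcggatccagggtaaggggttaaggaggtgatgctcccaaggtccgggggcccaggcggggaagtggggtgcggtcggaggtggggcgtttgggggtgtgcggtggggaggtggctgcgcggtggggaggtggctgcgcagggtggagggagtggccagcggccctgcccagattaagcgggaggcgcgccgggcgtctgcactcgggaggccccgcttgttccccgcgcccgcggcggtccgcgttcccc

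COL4A5: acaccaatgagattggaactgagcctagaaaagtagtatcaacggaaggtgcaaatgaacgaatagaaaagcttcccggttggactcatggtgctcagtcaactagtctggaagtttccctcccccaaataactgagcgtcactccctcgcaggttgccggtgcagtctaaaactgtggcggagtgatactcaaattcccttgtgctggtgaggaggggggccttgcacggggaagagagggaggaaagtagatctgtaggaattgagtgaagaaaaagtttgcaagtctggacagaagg

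COL4A6: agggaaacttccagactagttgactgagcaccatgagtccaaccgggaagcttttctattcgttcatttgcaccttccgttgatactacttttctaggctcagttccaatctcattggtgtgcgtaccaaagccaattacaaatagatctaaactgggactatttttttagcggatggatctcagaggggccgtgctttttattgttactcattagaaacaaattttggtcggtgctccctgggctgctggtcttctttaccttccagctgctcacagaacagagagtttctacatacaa

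The COL4A3 window is 67.7% G or C with 2 GC boxes and the COL4A4 window 74% with none, while those of COL4A5 (49.3%) and COL4A6 (43.7%) hold none. The windows of a pair overlap, so the start of one is partly the reverse complement of the other. None of the 32 collagen promoters held the AP-1 letters TGANTCA on either strand, against 7.71% of all windows, and 1 held the TEAD letters GGAATG, against 14.0%. The CCAAT box was found in 10 of the 32 (34.6% of all windows), TATAAA in 5 (11.5%) and the E-box CANNTG in 18 (68.7%). A match or its absence describes these letters in these windows and says nothing of a factor.

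The chains of the common basement membrane network were low. COL4A1, its main chain, was at 7.02, 4.54, 9.14 and 9.51 at day 28 (G1 clone 1, G1 clone 7, S and G2), against 7.85, 5.31, 8.89, 7.24 and 8.75 at day 0 (G1 clone 1, G1 clone 7, S clone 1, S clone 7 and G2). Clone 7 was the lowest library within each group that had both clones, and S and G2 of clone 1 were above its G1 at both days. The log2 difference between days was 0.13 ± 0.73 (SE, limma adjusted p = 0.888), and its sign turned in several alternative fits. COL4A2, the partner chain, was below the filter with 21 to 267 reads at day 28 and 2 to 27 at day 0.

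COL7A1 encodes type VII collagen, the anchoring fibril of skin and other stratified epithelia, at chr3:48564406-48595159 on the minus strand. Its log2 level was 15.58, 15.92, 14.62 and 14.61 at day 28 (G1 clone 1, G1 clone 7, S and G2), against 13.80, 13.46, 13.96, 13.15 and 12.96 at day 0 (G1 clone 1, G1 clone 7, S clone 1, S clone 7 and G2). All day 28 libraries were above all day 0 libraries, and the G1 libraries were the highest at day 28. COL7A1 rose by 1.68 ± 0.25 on the log2 scale (SE, limma adjusted p = 2.76e-04), 3.21-fold. COL28A1, a type VI-like chain known from the nervous system in mice, was at 9.30, 10.05, 8.60 and 8.60 at day 28, against 7.71, 8.86, 7.62, 8.10 and 7.86 at day 0. Day 0 G1 of clone 7 was above day 28 S and G2. It passed the test narrowly (1.04 ± 0.38 SE, limma adjusted p = 0.0362). Its density was 0.928 to 9.09 times that of the olfactory receptor genes of the same library at day 28 and 3.35 to 12.6 times at day 0, and with that background subtracted the log2 difference was -0.73 (limma adjusted p = 0.560).

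COL13A1 fell most. It encodes a collagen with a single pass through the membrane, known from cell adhesion sites and the neuromuscular junction, and was the only transmembrane collagen above the filter. Its log2 level was 6.06, 6.60, 7.22 and 7.97 at day 28 (G1 clone 1, G1 clone 7, S and G2), against 10.69, 13.95, 10.17, 14.07 and 10.52 at day 0 (G1 clone 1, G1 clone 7, S clone 1, S clone 7 and G2). The days did not overlap, and at day 0 both clone 7 libraries stood far above the 3 clone 1 libraries. The log2 fold change was -4.86 ± 0.86 (SE, limma adjusted p = 8.39e-04). Its size depended on the fit, at -5.55 to -4.06 with 1 library left out and -3.37 with clone 1 alone. With the olfactory background subtracted it was -10.2. That fit put every day 28 library at the 0.9 reads entered for none, so its size is set by this floor. There were 24, 39, 67 and 121 reads at day 28, against 1859, 1226, 571, 4930 and 571 at day 0. Over the whole span the density was 0.611 to 0.924 times that of the olfactory receptor genes at day 28 and 23.7 to 887 times at day 0. The gene is long (156.3 kb), a class of span in which 56.3% of all genes rose and 8.76% fell.

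The COL13A1 window (GRCh38.p14, chr10:69801656-69801955, plus strand) is given to set the gene that fell most beside the gene that rose most.

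COL13A1: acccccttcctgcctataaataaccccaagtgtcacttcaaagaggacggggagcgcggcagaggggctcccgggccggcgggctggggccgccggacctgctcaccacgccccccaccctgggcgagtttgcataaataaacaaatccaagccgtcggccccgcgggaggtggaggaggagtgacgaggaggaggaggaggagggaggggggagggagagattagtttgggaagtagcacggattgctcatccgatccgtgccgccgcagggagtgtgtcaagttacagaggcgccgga

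It is 64% G or C and holds no GC box.

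The type VI chains fell together. COL6A1 and COL6A2 lie near each other on chromosome 21 (chr21:45981851-46004013 and chr21:46111477-46132552, both on the plus strand) and encode partner chains of the beaded filament. COL6A1 was at 13.09, 14.09, 11.35 and 11.27 at day 28 (G1 clone 1, G1 clone 7, S and G2), against 14.88, 15.19, 14.88, 15.76 and 14.24 at day 0 (G1 clone 1, G1 clone 7, S clone 1, S clone 7 and G2). COL6A2 was at 13.75, 14.94, 12.36 and 12.52 at day 28, against 15.25, 16.41, 15.08, 16.38 and 14.40 at day 0. COL6A1 did not overlap between days, whereas COL6A2 in day 28 G1 of clone 7 was above day 0 G2. The log2 fold change was -2.57 ± 0.41 for COL6A1 (SE, limma adjusted p = 4.52e-04) and -2.15 ± 0.42 for COL6A2 (SE, limma adjusted p = 0.00140). For COL6A1 the difference was -1.45 in G1, -3.96 in S and -2.97 in G2, and for COL6A2 it was -1.48, -3.36 and -1.88. Ranks per kb of span, introns included, do not order the genes by RNA level. On that scale COL6A2 and COL6A1 ranked 3 and 4 of the 44 collagens at day 28, after 1 and 2 at day 0. Their other partner COL6A3 was below the filter, with 10 to 127 reads at day 28 and 7 to 44 at day 0.

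The other FACIT genes went separate ways. COL9A2, a chain of type IX collagen on cartilage fibrils, was at 6.68, 7.31, 6.21 and 10.78 at day 28 (G1 clone 1, G1 clone 7, S and G2), against 9.81, 9.12, 9.88, 10.30 and 10.26 at day 0 (G1 clone 1, G1 clone 7, S clone 1, S clone 7 and G2). Day 28 G2 was above every day 0 library while the other day 28 libraries were below all of them. The log2 fold change over phases was -2.21 ± 0.57 (SE, limma adjusted p = 0.00692). Within phases it was -2.47 in G1 and -3.88 in S, but 0.51 in G2. The call was lost without the day 28 S library (-1.47, limma adjusted p = 0.0579). COL12A1, a large FACIT chain of tendon and tumour stroma, was read over a 34.3 kb span at the 3′ end of the gene. It was at 12.81, 11.19, 12.72 and 12.74 at day 28, against 12.56, 11.23, 12.87, 11.06 and 12.10 at day 0. Its low libraries at both days were those of clone 7, and the day difference was 0.43 ± 0.44 (SE, limma adjusted p = 0.425). COL18A1, the multiplexin whose end fragment is endostatin, was at 12.63, 11.54, 13.04 and 13.16 at day 28, against 12.28, 12.89, 12.54, 12.93 and 11.48 at day 0. It did not pass the test (0.25 ± 0.35 SE, limma adjusted p = 0.562). With clone 1 libraries alone it did (0.84, limma adjusted p = 0.00996).

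Longer genes rose more often than short ones in this comparison, and collagen genes are long. The median span was 123.7 kb for the tested collagens and 25.8 kb for all tested genes. Of all genes with spans up to 30 kb, 17.7% rose and 35.6% fell (median -0.33), while of those of 100 to 300 kb 56.3% rose and 8.76% fell (median 0.84), and of those over 300 kb 80.9% rose and 1.38% fell (median 2.01). The collagens of 100 to 300 kb numbered 10, of which 6 were called higher and 1 lower (median 1.05). Of the 5 collagens up to 30 kb, COL11A2 rose and COL6A1, COL6A2 and COL9A2 fell. Of the 3 between 30 and 100 kb, COL16A1 and COL7A1 rose. With the trend on span removed from each library, COL4A5, COL27A1 and COL28A1 no longer passed the test, while COL16A1, COL11A2, COL4A3, COL4A4, COL5A1 and COL7A1 still did. Whether the span trend comes from unspliced RNA, DNA or another source was not tested.

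**Figure D3:**
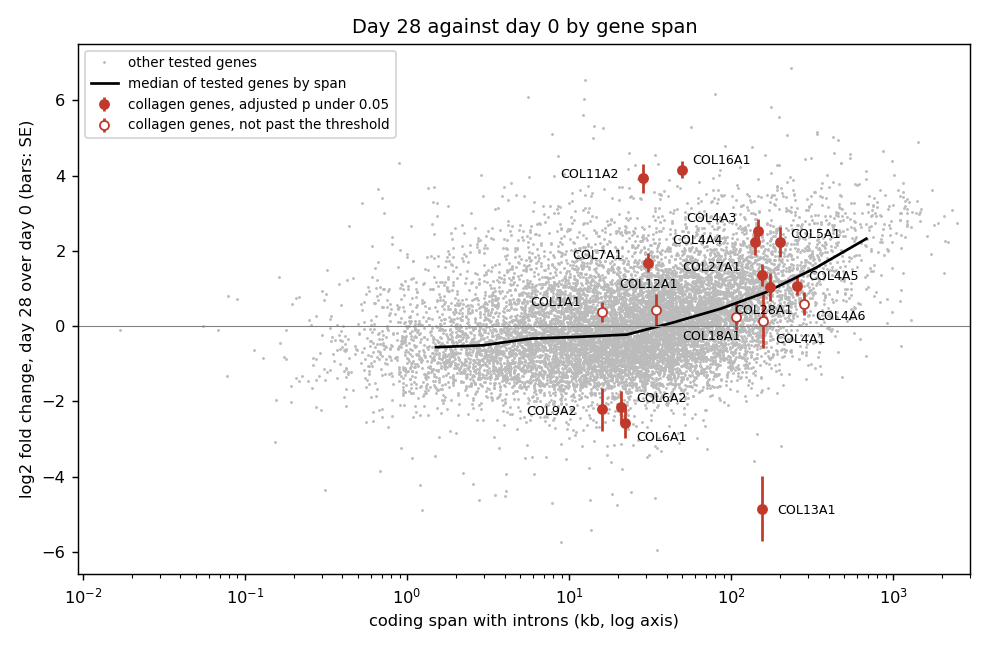
Log2 fold change of day 28 over day 0 (y axis, with SE bars for collagens) against the coding span with introns (kb, log axis) for all 12391 tested genes, with the median by span as a line. COL16A1 and COL11A2 (4.15 and 3.92) lie far above the line at their spans, COL4A5 and COL28A1 lie near it, and COL13A1 (-4.86) lies far below.

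Where the table held a shorter span of the same gene that reached its end or start, reads could be compared along the gene, as a description without a test. In COL13A1 the difference was larger in the 3′ part than in the 5′ part. The 3′ 64.1 kb differed by -5.85 between days with phase as a term, and the 5′ 92.1 kb by -3.35. Its last 39.6 kb held 19, 29, 23 and 0 reads at day 28 (G1 clone 1, G1 clone 7, S and G2), against 1248, 995, 386, 3498 and 444 at day 0 (G1 clone 1, G1 clone 7, S clone 1, S clone 7 and G2). These last-part reads gave 1.91, 2.71, 1.12 and 0 times the olfactory density at day 28, against 72.8 to 2484 times at day 0. They were 79.2% and 74.4% of the reads of the gene in day 28 G1 of clones 1 and 7, 34.3% in day 28 S and 0% in day 28 G2, against 67.1% to 81.2% at day 0. In day 28 G2, 106 of 121 reads lay in the 5′ part, which is 1.02% exonic. COL16A1 was higher in both parts, by 4.20 in the 3′ 26.8 kb and by 3.11 in the 5′ 22.7 kb. COL11A2 was higher by 3.85 in its 3′ part and by 4.40 in its 5′ part. COL4A4 was higher by 1.95 in the 3′ part and by 3.11 in the 5′ part, and COL4A5 by 0.66 in the 3′ 14.4 kb, of which 22.2% is exonic, and by 1.28 in the 5′ 241.8 kb, of which 2.96% is. COL6A2 was lower in both, with differences of -1.38 in the 3′ part and -2.48 in the 5′ part. The reads of COL9A2 lay almost wholly in its 3′ part, with 33, 58, 25 and 849 reads there at day 28, so the high G2 value came from that part.

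**Figure D4:**
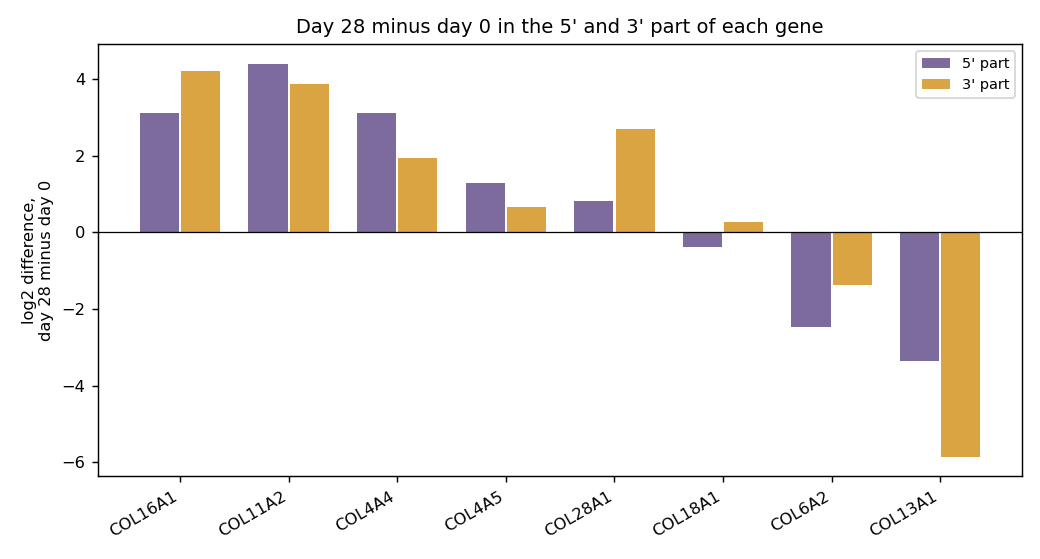
Log2 difference of day 28 minus day 0, adjusted for phase (y axis), in the 5′ part (purple) and the 3′ part (yellow) of the 8 tested collagen genes for which nested spans divide the gene and each part held at least 50 reads over the libraries. COL12A1 is left out because its span covers the 3′ end of the gene alone. Bars carry no error because the parts were not tested. Both parts of COL16A1 and COL11A2 are up by more than 3, and the 3′ part of COL13A1 (-5.85) is down more than its 5′ part (-3.35).

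The 26 collagens below the filter were mostly at background. In 20 of them the density stayed under 5 times that of the olfactory receptor genes in every library, with a highest value of 2.75 times at day 28 and 4.34 times at day 0. Pooled density was higher at day 28 in 24 of the 26, as was the olfactory density itself. Above that level stood COL9A3, COL17A1, COL20A1, COL8A1, COL6A3 and COL8A2 in at least 1 library. COL20A1, a FACIT chain, had 193, 457, 59 and 168 reads at day 28 (G1 clone 1, G1 clone 7, S and G2), against 7, 3, 3, 3 and 5 at day 0 (G1 clone 1, G1 clone 7, S clone 1, S clone 7 and G2). Its day 28 density was 22.2 and 49.0 times the olfactory density in G1 of clones 1 and 7, and 3.29 and 4.20 times in S and G2. COL17A1, the transmembrane chain of the hemidesmosome, had 173, 18, 217 and 324 reads at day 28, against 53, 23, 9, 92 and 0 at day 0. Within day 28, its lowest library was clone 7, while at day 0 its per-kb density was highest in the clone 7 libraries. COL8A1, a network chain of vessel walls, had 9, 6, 7 and 32 reads at day 28, against 66, 24, 19, 36 and 7 at day 0. COL8A2 had 0 reads at day 28 and 11 in all at day 0, and COL10A1 had 17 at day 28, all in 1 library, and 0 at day 0. None of these genes entered the main tests, and only the alternative fits with other filters took them in.

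**Figure D5:**
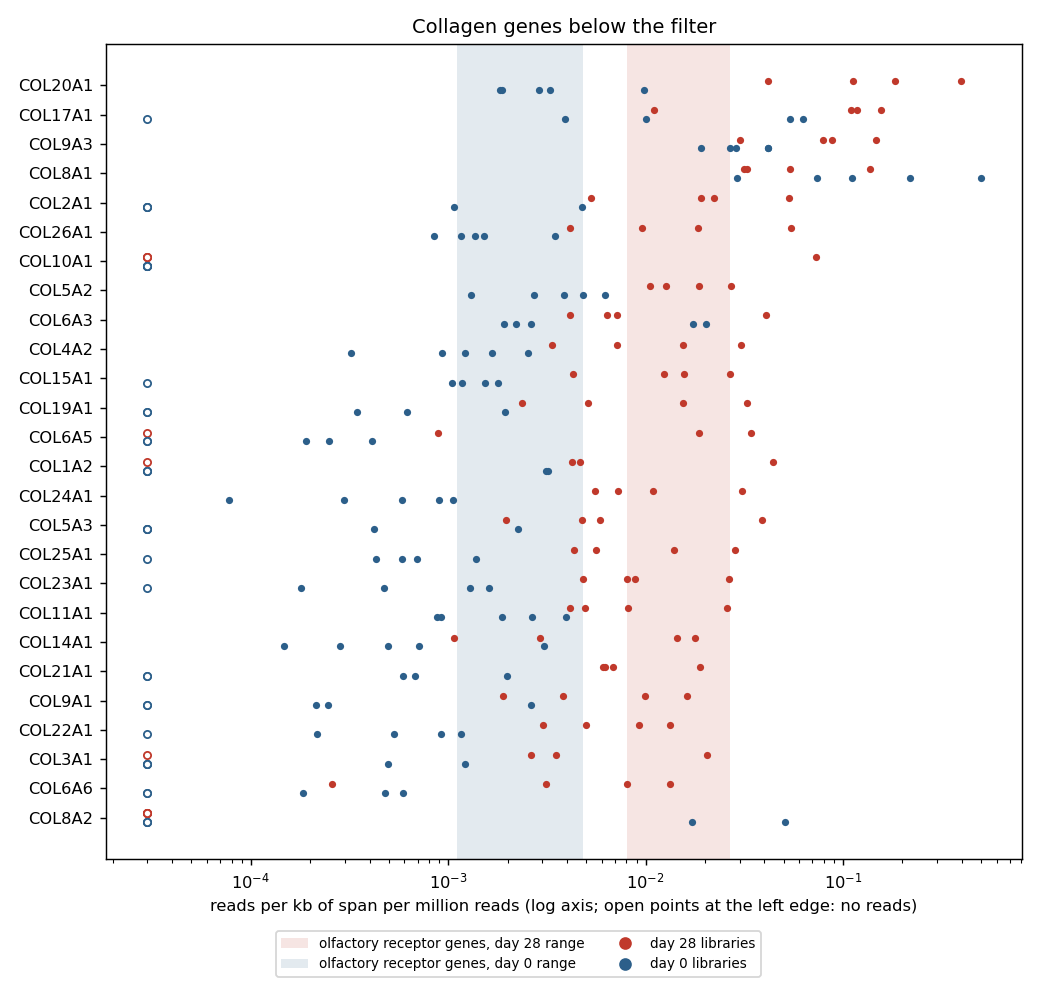
Reads per kb of span per M reads (log axis) for the 26 collagen genes below the filter, in the 4 day 28 libraries (red, upper) and the 5 day 0 libraries (blue, lower), with open points at the left edge where there was no read. Shaded bands give the range of the olfactory receptor genes at each day (0.00806 to 0.0268 at day 28, 0.00110 to 0.00483 at day 0), and all day 28 points of COL20A1, COL9A3 and COL8A1 lie above both bands, those of COL20A1 reaching 0.395.

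Within G1 alone (2 libraries each day), 7 collagens rose and 3 fell, against 39% of all genes called, 19.8% up and 19.1% down. COL11A2 rose by 4.52 ± 0.49 (SE, limma adjusted p = 0.00245) and COL16A1 by 4.52 ± 0.31 (SE, limma adjusted p = 0.00233), followed by COL5A1 (2.90), COL4A3 (2.79), COL7A1 (2.12), COL4A4 (1.94) and COL4A5 (1.08). COL6A1 (-1.45), COL9A2 (-2.47) and COL13A1 (-5.98) fell. COL28A1, COL27A1 and COL6A2 had adjusted p-values of 0.0848, 0.103 and 0.0807 in this limma contrast. With the clone as a replicate block they were also called, 13 collagens in all, with limma adjusted p-values of 0.0287, 0.0439 and 0.00257. The block raised the calls over all 12391 genes as well, to 3057 higher and 3034 lower, from 2459 and 2372. The within-clone differences below are for the same 3 collagens. In clones 1 and 7 they were 1.59 and 1.19 for COL28A1, 0.77 and 1.11 for COL27A1, and -1.49 and -1.47 for COL6A2. Of the 10 calls without the block, those of COL16A1, COL11A2, COL4A3, COL7A1 and COL9A2 held in every alternative fit. With the span trend removed COL4A4 (1.15, limma adjusted p = 0.122), COL4A5 (-0.11, 0.748) and COL6A1 (-1.19, 0.0660) were lost, and by voom COL13A1 was (limma adjusted p = 0.0881). Without day 28 G1 of clone 1, 5 collagens were called, with COL5A1, COL4A4, COL4A5, COL6A1 and COL13A1 lost. Without day 28 G1 of clone 7, COL4A5 and COL13A1 were lost. COL4A4 and COL6A1 were lost without either day 0 G1 library, and COL4A5 without day 0 G1 of clone 1 or either day 0 S library. The difference in G1 of COL13A1 was -4.63 in clone 1 and -7.34 in clone 7, and that of COL16A1 was 4.11 in clone 1 and 4.92 in clone 7. These G1 values share libraries with the comparison over phases.

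No collagen passed the test between phases. For S against G1 with day as a term none was called by limma (0.613% of all genes were, 0.573% higher and 0.0404% lower), and 1, COL4A1, had an unadjusted p under 0.05. At that unadjusted threshold 1587 of all 12391 genes passed. For G2 against G1 none was called by limma (2.24% of all genes were, 1.61% higher and 0.638% lower). Of the 18 collagens 8 had an unadjusted p under 0.05, as did 2223 of all 12391 genes. These 8 were COL4A1 (2.95 ± 0.92 SE), COL9A2 (2.29 ± 0.73 SE) and COL27A1 (1.09 ± 0.38 SE), higher in G2, and COL6A2 (-1.63 ± 0.53 SE), COL6A1 (-1.56 ± 0.52 SE), COL11A2 (-1.26 ± 0.50 SE), COL7A1 (-0.90 ± 0.31 SE) and COL16A1 (-0.68 ± 0.29 SE), lower in G2, with limma adjusted p-values from 0.133 to 0.244. G2 rests on 1 library at each day. Whether the day effect differed between cycling phases (S and G2 together) and G1 was tested by 1 term. It called no collagen, and 0% of all genes, by limma, and 2 collagens had an unadjusted p under 0.05. Of all 12391 genes 1382 passed the unadjusted threshold for this term. For COL6A1 the term was -2.09 ± 0.56 (SE, limma adjusted p = 0.256), and for COL18A1 it was 1.40 ± 0.60 (SE, limma adjusted p = 0.427).

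Clone 7 differed from clone 1 in 2 collagens, against 0.613% of all genes (0.387% higher and 0.226% lower). COL12A1 was lower in clone 7, by -1.54 ± 0.21 (SE, limma adjusted p = 0.0143), with pairwise differences of -1.62 in day 28 G1, -1.33 in day 0 G1 and -1.81 in day 0 S. COL6A2 was higher in clone 7, by 1.38 ± 0.25 (SE, limma adjusted p = 0.0473), with 1.19 in day 28 G1, 1.16 in day 0 G1 and 1.30 in day 0 S. COL13A1 differed by 2.39 ± 0.72 (SE) and was not called (limma adjusted p = 0.146). Its pairwise difference was 0.54 in day 28 G1, 3.26 in day 0 G1 and 3.90 in day 0 S. COL4A1 was lower in clone 7, by -2.26 ± 0.50 (SE), without passing the test (limma adjusted p = 0.0793). Clone 7 has 1 library at day 28, and neither clone call held when day 28 G1 of clone 1 was left out, nor without day 0 G1 of clone 1 or either day 0 S library (0 collagens called in each of these 4 fits). The COL6A2 call was also lost without either G2 library.

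A collagen chain is hydroxylated, folded and glycosylated in the endoplasmic reticulum, exported in large carriers, trimmed and crosslinked outside the cell, bound by receptors and broken down again. Of 18 genes for hydroxylation, folding and glycosylation, 17 were tested, and 1 rose and 6 fell (median -0.090). COLGALT1, which adds galactose to hydroxylysine, fell by 1.55 ± 0.29 on the log2 scale (SE, limma adjusted p = 0.00113), CRTAP, a part of the prolyl 3-hydroxylation complex, by 1.26 ± 0.23 (SE, limma adjusted p = 9.25e-04), and PPIB, a prolyl isomerase of the same complex, by 1.01 ± 0.19 (SE, limma adjusted p = 0.00121). COLGALT2 rose by 1.16 ± 0.42 (SE, limma adjusted p = 0.0364), a call lost in 10 of 20 alternative fits. It was 0.66 with the span trend removed (limma adjusted p = 0.210), and the call was lost without day 28 G1 of clone 1, S or G2, or day 0 G1 of clone 1, S of clone 1 or G2. Of 10 export genes, all tested, 1 rose and 2 fell (median -0.028). The coat GTPases SAR1B (-1.48 ± 0.23 SE) and SAR1A (-0.73 ± 0.20 SE) fell, and SEC31A of the outer coat rose by 0.62 ± 0.24 (SE, limma adjusted p = 0.0481). The SEC31A call was lost in 8 of 20 alternative fits, with 0.36 when the span trend was removed (limma adjusted p = 0.203), and without any of the G1 libraries or day 0 S of clone 1. With the span trend removed SAR1A was at -0.43 (limma adjusted p = 0.107).

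Genes for propeptide removal mostly rose, with 5 of 6 tested higher and 1 lower (median 1.45, 10 in the list). The 6 had a median span of 79.3 kb, against 25.8 kb for all tested genes, and longer genes rose more often. TLL2, a tolloid-like proteinase, rose by 3.92 ± 0.56 (SE, limma adjusted p = 2.65e-04), and the procollagen N-proteinases ADAMTS14 by 2.33 ± 0.65 (SE) and ADAMTS3 by 1.75 ± 0.54 (SE). PCOLCE2, an enhancer of C-propeptide removal, fell by 1.65 ± 0.52 (SE). The ADAMTS3 call did not hold in 6 of 20 alternative fits, namely with the span trend removed (0.52, limma adjusted p = 0.449), with the olfactory background subtracted (0.84, 0.617) and without day 28 G1 of clone 1, S or G2 or day 0 G2. ADAMTS14 was lost with the background subtracted (1.99, limma adjusted p = 0.0689). PCOLCE2 was lost with clone 1 alone (-0.92, limma adjusted p = 0.0535) and without G1 of clone 1 at either day. No crosslinking gene rose, and 4 of 7 fell (median -1.32). The 7 had a median span of 25.1 kb. TGM2, a transglutaminase, fell by 5.95 ± 0.47 (SE, limma adjusted p = 1.84e-05), the lysyl oxidases LOXL2 by 2.24 ± 0.46 (SE) and LOXL1 by 1.97 ± 0.29 (SE), and PXDN, which crosslinks type IV collagen, followed at -1.32 ± 0.21 (SE).

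Of 12 collagen receptors, 9 were tested, and 3 rose and 2 fell (median 0.038). GP6, the platelet collagen receptor, rose by 3.46 ± 0.48 (SE, limma adjusted p = 2.07e-04), ITGA10, an integrin chain of cartilage cells, by 2.18 ± 0.71 (SE), and MRC2, the receptor that takes up collagen for breakdown, by 1.96 ± 0.44 (SE). The ITGA10 call was lost without G1 of clone 1 or G2 at either day, 4 of 20 alternative fits. ITGB1, the beta chain shared by collagen-binding integrins, fell by 1.11 ± 0.21 (SE, limma adjusted p = 0.00136). Of 13 breakdown genes, 7 were tested, and 4 rose and 1 fell (median 0.94). MMP14, a membrane-bound collagenase, rose by 2.41 ± 0.45 (SE, limma adjusted p = 0.00108), CTSK, a collagen-cleaving lysosomal protease, by 2.31 ± 0.44 (SE), and TIMP2, an inhibitor of metalloproteinases, by 1.83 ± 0.37 (SE). PEPD, which recycles proline from collagen peptides, fell by 1.51 ± 0.29 (SE).

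Among basement membrane partners, 11 of 15 were tested, and 4 rose and 1 fell (median 0.079). LAMA4, the laminin chain of vessel walls, fell by 2.88 ± 0.24 (SE, limma adjusted p = 2.19e-05). LAMA2, the laminin chain of muscle, rose by 2.64 ± 0.64 (SE), LAMB2 by 1.79 ± 0.22 (SE) and HSPG2, the perlecan core protein, by 1.44 ± 0.26 (SE). LAMA2 spans 633.1 kb, a class in which 80.9% of genes rose, and it was 0.72 with the span trend removed (limma adjusted p = 0.289) and 1.18 with the olfactory background subtracted (limma adjusted p = 0.541). Among fibril binders, 4 of 10 were tested, and 2 rose and 1 fell (median 1.56). TNXB rose by 3.14 ± 0.49 (SE), FN1, fibronectin, by 2.47 ± 0.43 (SE, limma adjusted p = 7.74e-04), and TNC fell by 1.22 ± 0.47 (SE, limma adjusted p = 0.0473), a call lost in 8 of 20 alternative fits. TNC was at -0.68 with clone 1 alone (limma adjusted p = 0.225) and -0.96 by voom (0.0844), and the call was lost without any of the G1 libraries or day 0 S of clone 7. The small fibril-binding proteoglycans DCN, LUM, BGN and FMOD were below the filter. All the lists are read beside the same 28.6% higher and 26.6% lower of all genes. List genes could also pass the filter at 7.01 through 1 day alone. TNXB did so, with log2 values of 4.71 to 6.49 in day 0 libraries. GP6, ITGA10 and LAMA2 also had day 0 means under the filter. Their day 0 libraries lay at 5.94 to 7.77, 4.94 to 9.22 and 4.18 to 7.61.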

How the data were processed

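Log2 values of 80037 coding transcripts in 9 libraries of sorted PC9 cells were deposited by the authors. Per the submitters' processing notes, HISAT2 2.1.0, GRCh38 and DESeq2 were used. The read counter and the scaling are not given in the sources used here. The labels speak of about 24 M (M for mega) reads per sample on average, and the recovered reads average 43.0 M over 1 span per gene. Checked from the values, the entries of a library step in multiples of 1 amount, the worth of 1 read, and 0.9 reads stand where there was none. Of the values up to 1000 reads, 100% lay within 0.05 of a whole number. An inner span held more reads than the wider span around it in 0 of 1579743 comparisons, so introns are counted.

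Each gene was taken at its span with the highest mean, 1 was added on the linear scale and log2 was taken again. Tests covered genes whose mean log2 reached 7.01, which is what 10 reads give in the shallowest library (12391 of 20442) with limma 3.58.1 in R 4.3.3 (trend, Benjamini-Hochberg over all genes tested, adjusted p under 0.05). The same script was tested on simulated data. Day used phase as a term, phase used day, and the clone used both. G1 alone used 6 group means with 1 pooled spread. Neither a count model on the log2 values nor a test of S or G2 alone was run, and count error covers reads only, not PCR copies. Python 3.11.15, numpy 2.4.6, pandas 2.3.3 and matplotlib 3.10.9 were used beside the data.table package (1.17.8) and jsonlite 2.0.0.

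Every collagen gene is accounted for, and a pathway list names no more than 4 genes, those with the largest called changes. The members and lists were chosen with earlier results of these data known. Promoter windows are from RefSeq (GRCh38.p14), which matched 32 of the 44 genes. No coding gene of the same strand overlapped a collagen span. Alternatives were another scaling, other filters and pseudocounts, clone 1 alone, the widest span, the span trend removed, voom on recovered reads, each library left out, and, chosen after seeing the data, the olfactory background subtracted. The clone numbers in the labels pair libraries across groups. How clone 7 deviates from clone 1 correlated at 0.115 (day 28 G1 with day 0 G1), 0.296 (day 28 G1 with day 0 S) and 0.653 (day 0 S with day 0 G1), across 12391 genes, which are not independent replicates. Fits with the clone as a replicate block were an alternative.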

Additional observations from a re-analysis of the deposited data

Results flagged for a closer look

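Among the 36 groups formed by the 18 tested collagens at each day, 1 held a library far from the others. COL12A1 was at a log2 level of 11.19 in day 28 G1 of clone 7, while the other 3 day 28 libraries, all of clone 1, lay between 12.72 and 12.81. The gap was 0.944 of the whole range. Chance alone flags about 1 in 20 such groups. At day 0 the clone 7 libraries of COL12A1 were also the lowest, at 11.23 and 11.06, and the clone was not told apart from the library at day 28.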

How the results depend on the processing

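Of the 13 collagens called for day 28 over phases, 9 kept their call and direction in every alternative tried (COL16A1, COL11A2, COL4A3, COL4A4, COL5A1, COL7A1, COL6A1, COL6A2 and COL13A1). The count of collagens that rose was 24 of 44 tested without a filter and 14 of 24 tested with at least 1 CPM in 4 libraries, against 9, because more low genes were tested. Over all genes, 4982 of 20442 rose without a filter and 3984 of 13254 with the CPM filter. The collagens below the main filter were mostly at background, and the olfactory density was itself higher at day 28. Median-of-ratios scaling moved the median of all genes to -0.10 and their split to 3171 higher and 3777 lower, from 3538 and 3291. COL28A1 was lost under that scaling (adjusted p = 0.0544), without a filter (0.0572), with clone 1 alone (0.0511), with the span trend removed (0.661) and without any 1 of 7 libraries (all but the clone 7 libraries of day 0), and was -0.73 with the olfactory background subtracted. COL27A1 was lost with the span trend removed, and COL9A2 by voom (-1.54, adjusted p = 0.0527) and without day 28 S. The cause was not tested.

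Directions turned in genes near the span trend or near 0. With the span trend removed, COL4A5 was -0.082 over phases and -0.11 in G1, COL4A6 -0.63, COL18A1 -0.24 and COL4A1 -0.63. With the background subtracted, COL4A6 was -0.17 and COL4A1 -1.003. With the clone as a replicate block COL4A1 was -0.21, and the block called 9 collagens higher and 4 lower over phases and 13 in G1 (10 without it) and changed no other direction. Over all 12391 genes the block called 3716 higher and 3514 lower over phases, and 3057 and 3034 in G1. Leaving out 1 library gave -0.28 to 0.77 for COL4A1 and -0.18 to 0.59 for COL18A1.

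Leaving out 1 library gave 5 to 10 collagens called in G1 (5 without day 28 G1 of clone 1), 0 to 1 for G2 against G1 and 0 to 4 for the clones (4 without day 0 G1 of clone 7). Clone 1 alone called 2 for G2 against G1 and 1 for the day-by-cycling term. Pathway counts were 20 higher and 18 lower, and 15 to 21 and 16 to 19 with 1 library left out. Day 0 G1 of clone 7 was the shallowest library, with 8.83 M reads (M for mega), and both its depth and the day 28 background limit the low genes.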
